A study of Bos taurus with 4 samples.

Results

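Genes that keep cells in redox balance were examined in bovine intramuscular preadipocytes (BIP cells), precursors of the fat cells that lie inside skeletal muscle. The set holds the glutathione transferases, glutathione peroxidases, peroxiredoxins and superoxide dismutases on the array, together with catalase (CAT), NQO1, HMOX1, GCLC, GCLM, GSR, GSS, TXN, TXN2, TXNRD1, TXNRD2, SRXN1, NFE2L2 and KEAP1. Probes were taken by their gene name in the array files (names starting with GSTA, GSTM, GSTO, GSTP, GSTT, GSTK, GSTZ, MGST, GPX, PRDX or SOD and a number, or one of the symbols above). This gave 106 of 43653 probes, which current RefSeq names assign to 51 of 25297 genes. Of these, 42 were tested, among 17736 genes in all, because in some group each of the 3 arrays had them well above background.

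RNA was measured on 12 single-colour arrays, 3 for each of 4 groups. ATRA cells were kept for 6 days in adipogenic medium with all-trans retinoic acid at 1 µM, and 9cRA cells for 6 days in that medium with 9-cis retinoic acid at 1 µM. Day 6 control cells received the medium without a retinoid for 6 days, and day 0 cells were harvested at the start of adipogenic stimulation. All groups held for 6 days shared insulin (50 ng/mL), dexamethasone (0.25 µM), octanoate (5 mM), acetic acid (10 mM) and 10% fetal bovine serum, with fresh medium every 2 days. Since every culture held for 6 days was in this medium, the effect of the medium and that of elapsed time cannot be told apart. In the labels a group is 1 sample that has 3 arrays, and separate cultures are not stated, so the p-values rest on how far these arrays differ, and that may be technical. In bulk RNA, fewer cells of a type and less RNA per cell cannot be told apart.

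Signals are log2 values relative to the 75th percentile of the array, which lay between 1094 and 1359 intensity units, and the share of probe spots well above background ran over 64.8% to 74.0%. Day 6 control array 1 stood apart, with the lowest such share and 105 spots marked non-uniform, where the 11 others had 2 or fewer. The arrays lay on 3 slides: ATRA arrays 1 and 2 shared slide 2 with day 6 control arrays 2 and 3, ATRA array 3 shared slide 3 with all 9cRA arrays, and day 6 control array 1 shared slide 1 with all of day 0. No slide held both 9cRA and day 6 control RNA, so a fit with slide as a block links those groups through the ATRA arrays. In that fit day 0 is linked to the other groups only through day 6 control array 1, the array that stood apart. The 9cRA arrays are linked to the others only through ATRA array 3. Block values against day 0 thus rest on that 1 day 6 control array. All 13 preadipocyte and stromal markers examined were tested, whereas ADIPOQ and LEP (fat cells), AIF1, CD163 and ITGAM (macrophages), PECAM1 and CDH5 (endothelium), MYF5 and PAX7 (muscle precursors) and EPCAM (epithelium) lay at or near background and were not tested.

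Glutathione is a small thiol peptide that serves as the electron donor for peroxidases and as the tag that transferases attach to reactive compounds. Thioredoxin and the peroxiredoxins form a parallel system in which thiols of proteins take up peroxides and are reduced again with NADPH. NFE2L2 encodes NRF2, a transcription factor that KEAP1 holds in check and that is known to switch on many of these enzymes, NQO1, GCLM, TXNRD1 and SRXN1 among them.

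Probes for 4 genes on which the results below turn are printed first. NFE2L2 and GPX3 have 4 probes each, and GPX4 and SOD2 have 2 each. The NFE2L2 probe printed is the brightest, whose signals are given below. For GPX3, GPX4 and SOD2 the signals below come from a brighter probe than the one printed. Matches of these probes to other genes were not examined. The printed probes are 60 bases long, written 5′ to 3′, and placed as the array files place them on UMD3.1, where the exon is not named. The probe printed for NFE2L2 lay at chr2:19691227-19691286 on the plus strand, that for GPX3 at chr7:64291690-64291749 (plus), that for GPX4 at chr7:45206739-45206798 (plus) and that for SOD2 at chr9:97393324-97393383 (minus).
NFE2L2: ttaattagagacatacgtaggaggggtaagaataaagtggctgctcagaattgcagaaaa
GPX3: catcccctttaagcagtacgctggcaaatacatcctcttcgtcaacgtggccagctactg
GPX4: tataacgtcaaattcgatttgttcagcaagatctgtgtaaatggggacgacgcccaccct
SOD2: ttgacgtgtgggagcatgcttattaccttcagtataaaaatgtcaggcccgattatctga

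With ATRA, thioredoxin (TXN), NRF2 (NFE2L2) and the secreted glutathione peroxidase GPX3 were higher than in the day 6 control, while GPX4, PRDX4 and NQO1 were lower. A difference is called here where the adjusted p of limma, with Benjamini-Hochberg adjustment over 17736 genes, is under 0.05. Of the 42 tested genes, 10 were called higher and 16 lower with ATRA, and 16 were not called. That is 61.9% of the set, beside 46.2% of all genes tested (23.8% called higher and 22.4% lower). The median difference of the set was -0.12, and that of all genes tested was 0.05. Slide as a block gave 21 calls (50.0%, beside 38.8% of all genes with the block), 18 of them among the 26. Because slide 2 alone holds both groups, the block and a fit within slide 2 give the same differences and are not separate checks. The fit within slide 2, which holds 2 ATRA arrays and 2 day 6 control arrays, gave 15 calls (35.7%, beside 30.0% of all genes). It did not call CAT, GCLM, GPX1, GPX7, GSTA4, GSTM1-LOC327709, GSTO1, GSTP1, KEAP1, PRDX2, PRDX5, SRXN1 or TXNRD1 of the 26. With only the ATRA and day 6 control arrays fitted, GCLM, GPX1, GPX7, GSTM1-LOC327709, GSTM1-LOC783879, GSTO1, GSTP1, PRDX5 and TXNRD1 were not called. Without day 6 control array 1 there were 24 calls (57.1%, beside 43.2% of all genes).

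With 9cRA, TXN, GPX3, NFE2L2 and the transferase GSTT1 were higher than in the day 6 control, and PRDX4, NQO1 and GPX4 were lower. There were 11 genes called higher, 12 lower and 19 not called. The called share was 54.8%, beside 46.5% of all genes (24.8% higher and 21.7% lower). When each array was scaled to its median instead, 9 of 24 calls were higher, and of the calls over all genes 44.2% were higher, against 53.3% with the 75th percentile. The median difference was -0.04 in the set and 0.06 over all genes. Slide as a block gave 9 calls, or 21.4% of the set beside 23.1% of all genes, so that with the block the called share of the set was near that of all genes. Of the 9, 8 were among the 23: TXN, GPX3, GSTT1, KEAP1, SOD1 and SOD2 (higher) and NQO1 and PRDX4 (lower). Adjusted p of the other 15 lay between 0.0581 and 0.96 with the block. With only the 9cRA and day 6 control arrays fitted, GCLM, GSTA4, GSTO1, PRDX2, SOD1, SOD2 and TXNRD1 were not called. Both retinoid comparisons use the same 3 day 6 control arrays, so their values are given side by side and are not independent.

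Over 6 days of culture without a retinoid, GPX3, the mitochondrial superoxide dismutase SOD2 and the endoplasmic reticulum peroxiredoxin PRDX4 were higher in the day 6 control than at day 0. The transferase GSTA2, haem oxygenase (HMOX1), glutathione synthetase (GSS) and a GSTM1 copy were lower. Calls numbered 13 higher, 19 lower and 10 not called. The called share was 76.2%, beside 62.4% of all genes (31.1% higher and 31.3% lower). The set's median difference was -0.16, and the median over all genes was 0.0047. With slide as a block this comparison rests on day 6 control array 1 alone, so no count is given for it. With only the day 6 control and day 0 arrays fitted, GCLM, GSR, GSTM1-LOC783879 and MGST3 were not called. Without day 6 control array 1, 30 genes were called (71.4%, beside 65.8% of all genes).

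Markers of cell types also differed between the groups, given here as the lowest and highest summed linear signal over the arrays of a group, in units of the array's 75th percentile. The sums take in all markers on the array, also those not tested. The 8 fat cell markers (6 tested) summed to 35.1 to 35.9 with ATRA, 32.4 to 37.9 with 9cRA, 99.0 to 118 in the day 6 control and 30.2 to 33.9 at day 0. The 7 skeletal muscle markers (5 tested) summed to 20.0 to 20.3 with ATRA, 21.6 to 23.2 with 9cRA, 45.0 to 49.3 in the day 6 control and 74.3 to 78.9 at day 0. Fat cell markers thus stood highest in the day 6 control, as PRDX4 does below, and muscle markers highest at day 0 and lowest with a retinoid, as GPX4 and NQO1 do. The 6 endothelial markers (4 tested) summed to 0.491 to 0.577 with ATRA, 0.421 to 0.548 with 9cRA, 0.194 to 0.271 in the day 6 control and 0.155 to 0.178 at day 0, and PECAM1 and CDH5 lay at or near background and were not tested. Of these markers, 4 were well above background on all arrays with ATRA, 4 with 9cRA, 2 in the day 6 control and 3 at day 0. Endothelial markers were thus highest with a retinoid, as TXN, GPX3 and NFE2L2 are. So were the 7 macrophage or leukocyte markers on the array, whose sums are given with the oxidant producing enzymes below. Endothelial sums were also higher in the day 6 control than at day 0, groups between which TXN and NFE2L2 overlap. The 4 epithelial markers (3 tested) summed to 0.410 to 0.538 with ATRA and 0.479 to 0.510 with 9cRA. They summed to 0.352 to 0.430 in the day 6 control and 0.239 to 0.421 at day 0. The 13 stromal markers summed to 773 to 849 with ATRA, 793 to 814 with 9cRA, 949 to 1014 in the day 6 control and 868 to 892 at day 0. The part of these cell types in the results was not tested.

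**Figure D1:**
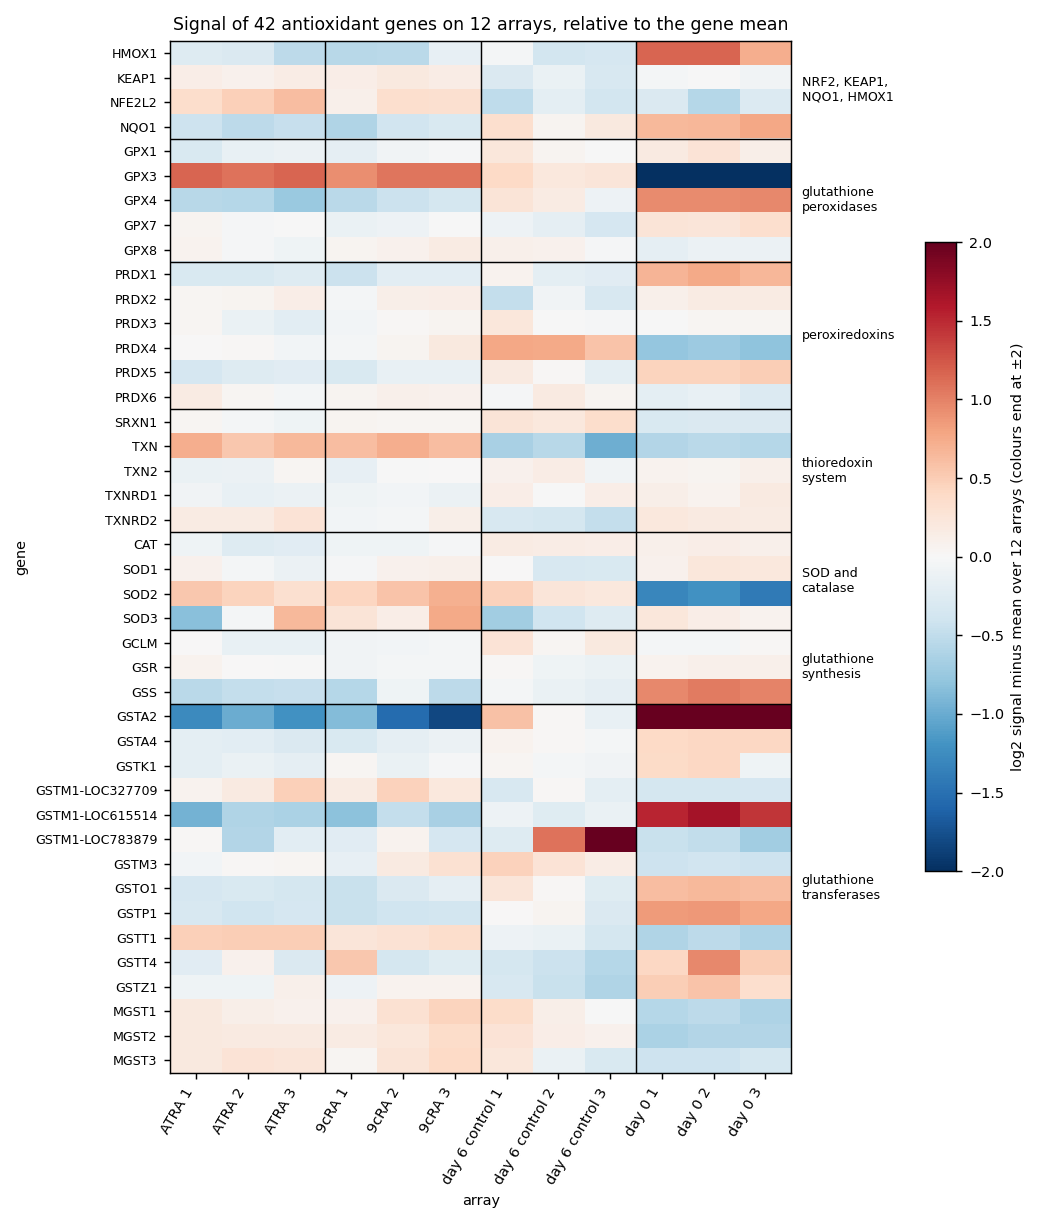
Rows are the 42 tested genes by role, columns are the 12 arrays by group, and colour is the log2 signal minus the gene's mean over the 12 arrays, with colours ending at ±2 on this log2 scale. GPX3, SOD2 and PRDX4 are low on the 3 day 0 arrays, where HMOX1, GPX4, GSS and GSTA2 are high, and TXN is high on the 6 retinoid arrays.

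NFE2L2 was higher with either retinoid, as was KEAP1 by its brightest probe, and NQO1, a quinone reductase widely used as a readout of NRF2, was lower. NFE2L2 read 2.18, 2.31 and 2.44 on the ATRA arrays, 1.93, 2.16 and 2.14 on the 9cRA arrays, 1.31, 1.62 and 1.45 on the day 6 control arrays and 1.53, 1.26 and 1.55 at day 0. The retinoid arrays lie above all other arrays, and day 6 control and day 0 overlap. The difference from the day 6 control was 0.85 ± 0.11 (SE) with ATRA (adjusted p = 0.000137) and 0.61 ± 0.11 with 9cRA (adjusted p = 0.00127). The 9cRA difference was 0.34 with slide as a block (adjusted p = 0.246). All 4 NFE2L2 probes, fitted one by one, were called higher, by 0.56 to 0.85 with ATRA and by 0.61 to 0.66 with 9cRA. The day 6 control differed from day 0 by 0.01 ± 0.11 (adjusted p = 0.928), with a 95% interval of -0.24 to 0.26, although 2 of its other probes were called lower (-0.23 and -0.29).

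NQO1 moved the other way. Its signal was 0.33, 0.22 and 0.28 with ATRA, 0.15, 0.36 and 0.45 with 9cRA, 1.09, 0.81 and 0.95 in the day 6 control and 1.40, 1.41 and 1.52 at day 0. No array of a retinoid group reached the lowest day 6 control array, and none of the day 6 control reached the lowest day 0 array. The differences were -0.67 ± 0.09 with ATRA (adjusted p = 0.000158), -0.63 ± 0.09 with 9cRA (adjusted p = 0.000255) and -0.50 ± 0.09 for the day 6 control against day 0 (adjusted p = 0.000719). Its 2 probes share 46 bases with 1 mismatch and gave nearly the same values, -0.69 and -0.67 with ATRA.

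KEAP1, the adaptor that delivers NRF2 to degradation, read 4.40, 4.35 and 4.42 with ATRA, 4.41, 4.47 and 4.41 with 9cRA, 3.97, 4.14 and 3.94 in the day 6 control and 4.23, 4.26 and 4.19 at day 0. The day 6 control arrays were the lowest. The gene was 0.37 ± 0.06 higher with ATRA (adjusted p = 0.000331) and 0.41 ± 0.06 higher with 9cRA (adjusted p = 0.000169), and it fell by 0.21 ± 0.06 over culture (adjusted p = 0.00743). Of its 4 probes, 2 were called higher with ATRA (range over all 4: 0.04 to 0.37) and 3 with 9cRA. The ATRA call for KEAP1 was lost with the mean over its probes (0.24, adjusted p = 0.0594) and within slide 2 (0.33, adjusted p = 0.0588), and the culture call with quantile normalization (-0.04, adjusted p = 0.517).

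HMOX1, which degrades haem, differed in culture but not detectably with a retinoid. Its arrays read 2.79, 2.76 and 2.52 with ATRA, 2.48, 2.51 and 2.88 with 9cRA, 3.01, 2.68 and 2.71 in the day 6 control and 4.20, 4.20 and 3.76 at day 0. Every array held for 6 days lies below every day 0 array, and the groups held for 6 days overlap. The day 6 control was lower than day 0 by -1.25 ± 0.15, or 2.38-fold (adjusted p = 4.3e-05). The ATRA difference was -0.11 (95% interval -0.45 to 0.23) and the 9cRA difference -0.18 (-0.52 to 0.17).

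**Figure D2:**
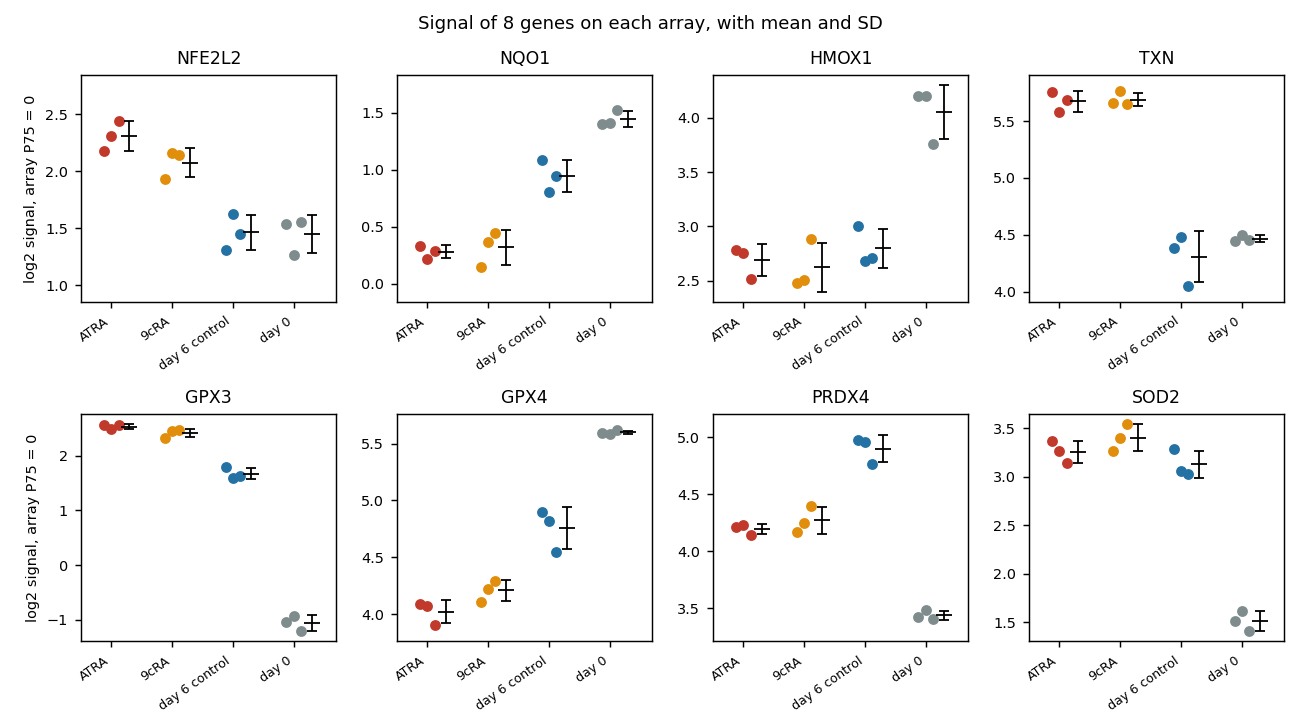
Each point is 1 array, the black bar is the mean ± SD of 3 arrays, and the vertical axis is the log2 signal with the array's 75th percentile at 0, on a scale of its own for each gene. TXN separates the 6 retinoid arrays from the 6 others, HMOX1 and SOD2 separate the day 0 arrays from the 9 others, and in PRDX4 the day 6 control arrays are the highest.

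Of the 5 tested glutathione peroxidases, 2 were higher and 2 lower with ATRA, 1 and 1 with 9cRA, and 2 and 2 in culture, beside 46.2%, 46.5% and 62.4% of all genes called in these comparisons. GPX3, the secreted form found in plasma, was higher and GPX4, which reduces lipid hydroperoxides in membranes, was lower with either retinoid and over culture. GPX3 signals were 2.55, 2.48 and 2.56 with ATRA, 2.32, 2.45 and 2.46 with 9cRA, 1.79, 1.59 and 1.63 in the day 6 control and -1.04, -0.92 and -1.20 at day 0. The retinoid arrays are the highest, the day 6 control lies between and day 0 is the lowest, with no overlap between these levels. GPX3 was 6.62-fold higher in the day 6 control than at day 0 (2.73 ± 0.08, adjusted p = 1.2e-09), 1.81-fold higher with ATRA than in the day 6 control (0.86 ± 0.08, adjusted p = 1.1e-05) and 1.67-fold higher with 9cRA (0.74 ± 0.08, adjusted p = 3.5e-05). Its 4 probes were called higher in all 3 comparisons and ranged over 0.84 to 0.86 with ATRA, 0.74 to 0.99 with 9cRA and 2.73 to 2.90 in culture.

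GPX4 signals were 4.09, 4.07 and 3.91 with ATRA, 4.11, 4.22 and 4.30 with 9cRA, 4.90, 4.82 and 4.55 in the day 6 control and 5.59, 5.59 and 5.62 at day 0. Day 0 is the highest, the day 6 control lies between, and the retinoid arrays are the lowest, with no overlap between these levels. The differences were -0.73 ± 0.09 with ATRA (1.66-fold lower, adjusted p = 9.4e-05), -0.55 ± 0.09 with 9cRA (1.46-fold lower, adjusted p = 0.000745) and -0.84 ± 0.09 in culture (1.79-fold lower, adjusted p = 1.8e-05). Slide as a block moved the 9cRA difference to -0.30 (adjusted p = 0.18). The second probe, whose sequence is given above, was called lower in each of these comparisons as well, by -0.60, -0.50 and -0.79.

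GPX1, the abundant cytosolic enzyme, fell by 0.28 ± 0.08 with ATRA (adjusted p = 0.0149). It was not called without ATRA array 1 (-0.22, adjusted p = 0.0544). The 9cRA difference was -0.18 (adjusted p = 0.0851) and that of culture -0.10 (adjusted p = 0.289). GPX7, an endoplasmic reticulum peroxidase, was higher with ATRA (0.21 ± 0.07, adjusted p = 0.0236) and lower in the day 6 control than at day 0 (-0.48 ± 0.07, adjusted p = 9.8e-05). Its ATRA call was lost without ATRA array 1 (0.19, adjusted p = 0.0687), ATRA array 3 (0.22, adjusted p = 0.0528) or day 6 control array 3 (0.14, adjusted p = 0.065), and with each array scaled to its median (0.16, adjusted p = 0.133). GPX8, its close relative, was 0.19 ± 0.06 higher in culture (adjusted p = 0.0131) and by its brightest probe not called with either retinoid. With 9cRA, 1 of its 2 probes was called higher (0.32), as was the mean over probes (0.18, adjusted p = 0.0428). The culture call for GPX8 was lost with each array scaled to its median (0.12, adjusted p = 0.202), while quantile normalization gave 0.31 and the mean over probes 0.34. GPX5 and GPX6, known from the epididymis and olfactory tissue, lay at or near background and were not tested.

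GPX1 carried a pair of probes for opposite strands of the same 60 bases, chr22:51325904-51325963, which are shown because they are exact reverse complements.
GPX1 plus: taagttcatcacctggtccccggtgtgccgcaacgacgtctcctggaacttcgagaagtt
GPX1 minus: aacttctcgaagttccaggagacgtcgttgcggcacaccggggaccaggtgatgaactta
The minus strand probe was far dimmer, with a mean log2 signal of -3.85 beside 2.11 for the plus strand probe. Fitted probe by probe, the plus and minus strand probes gave much the same differences: -0.44 and -0.47 in culture (adjusted p = 0.00333 and 0.00218) and -0.35 and -0.31 with ATRA (adjusted p = 0.0166 and 0.0299). Similar differences do not mean similar amounts of RNA from each strand, and the source of the minus strand signal was not tested. The brightest GPX1 probe, which stands for the gene above, lies elsewhere in it and was not called in culture.

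All 6 peroxiredoxins were tested: 1 was higher and 2 lower with ATRA, 1 and 1 with 9cRA, and 2 and 3 in culture, beside 46.2%, 46.5% and 62.4% of all genes. Among them, PRDX4 gave the largest differences. It read 4.22, 4.23 and 4.14 with ATRA, 4.16, 4.25 and 4.40 with 9cRA, 4.97, 4.96 and 4.77 in the day 6 control and 3.42, 3.48 and 3.40 at day 0. The day 6 control arrays are the highest and the day 0 arrays the lowest, with the retinoid arrays in between and no overlap. PRDX4, which removes peroxide made during disulfide formation in the endoplasmic reticulum, was 2.76-fold higher after culture (1.46 ± 0.07, adjusted p = 4.9e-08). It was 1.63-fold lower with ATRA (-0.70 ± 0.07, adjusted p = 2.3e-05) and 1.55-fold lower with 9cRA (-0.63 ± 0.07, adjusted p = 5.4e-05) than in the day 6 control. ERO1A, the oxidase that makes that peroxide, was 3.26-fold higher in culture (1.71 ± 0.09, adjusted p = 7.6e-08), 2.10-fold higher with ATRA and 2.27-fold higher with 9cRA (1.07 ± 0.09 and 1.18 ± 0.09, adjusted p = 4.9e-06 and 2.6e-06).

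PRDX2, a cytosolic peroxiredoxin abundant in red cells, read 4.68, 4.70 and 4.78 with ATRA, 4.60, 4.75 and 4.77 with 9cRA, 4.16, 4.57 and 4.32 in the day 6 control and 4.75, 4.80 and 4.80 at day 0. Arrays of the day 6 control are the lowest and the most spread. PRDX2 was 0.37 ± 0.09 higher with ATRA (adjusted p = 0.00881), 0.36 ± 0.09 higher with 9cRA (adjusted p = 0.0103) and lower in culture by -0.43 ± 0.09 (adjusted p = 0.00223). Both retinoid calls were lost with slide as a block (0.24, adjusted p = 0.0684, and 0.17, adjusted p = 0.445). The culture difference of PRDX2 was -0.25 with quantile normalization. PRDX1, its cytosolic relative, was lower in the day 6 control than at day 0 by -0.82 ± 0.09 (adjusted p = 1.3e-05), and differed by -0.17 with ATRA and with 9cRA (adjusted p = 0.123 and 0.128). PRDX5, found in mitochondria, peroxisomes and the cytosol, was lower in culture (-0.45 ± 0.09, adjusted p = 0.000938) and with ATRA (-0.27 ± 0.09, adjusted p = 0.0253). The ATRA call for PRDX5 was lost without ATRA array 1 or 2 or day 6 control array 1 or 2, with values between -0.28 and -0.18, and with slide as a block (-0.21, adjusted p = 0.0859). Its culture difference was -0.30 with quantile normalization and -0.28 with the block. PRDX6, which works with glutathione, was higher in culture (0.28 ± 0.07, adjusted p = 0.00472), though not with slide as a block (0.18, adjusted p = 0.0888), scaling to the median (0.21, adjusted p = 0.06) or the mean over probes (0.15, adjusted p = 0.0561), and quantile normalization gave 0.42. The mitochondrial PRDX3 was not called in any of these 3 comparisons by its brightest probe. Of its 2 probes, 1 was called lower with ATRA (-0.22) and in culture (-0.18).

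TXN, cytosolic thioredoxin, gave the largest increase of the set with both retinoids. Its arrays read 5.76, 5.58 and 5.68 with ATRA, 5.65, 5.76 and 5.65 with 9cRA, 4.39, 4.48 and 4.05 in the day 6 control and 4.44, 4.50 and 4.46 at day 0. Every retinoid array lies far above each of the other 6 arrays, which overlap each other. TXN was 2.57-fold higher with ATRA (1.36 ± 0.10, adjusted p = 1.6e-06) and 2.60-fold higher with 9cRA (1.38 ± 0.10, adjusted p = 1.5e-06). Over culture it differed by -0.16 ± 0.10 (adjusted p = 0.186). Slide as a block gave 1.40 and 1.41 (adjusted p = 6.2e-05 and 0.00142). TXN rests on 1 probe, at chr8:101484908-101484967 on the minus strand.

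With a retinoid, the other 4 genes of the thioredoxin system differed less. TXNRD2, the mitochondrial thioredoxin reductase, read 1.54, 1.53 and 1.64 with ATRA, 1.32, 1.33 and 1.49 with 9cRA, 1.05, 1.02 and 0.90 in the day 6 control and 1.58, 1.56 and 1.53 at day 0. The day 6 control arrays are the lowest, and the ATRA and day 0 arrays overlap. It was higher with ATRA (0.59 ± 0.06, adjusted p = 2.8e-05) and with 9cRA (0.39 ± 0.06, adjusted p = 0.000512), and lower in culture (-0.57 ± 0.06, adjusted p = 1.8e-05). With slide as a block the 9cRA value was 0.31 (adjusted p = 0.076). TXNRD1, the cytosolic reductase of TXN, was slightly lower with ATRA (-0.20 ± 0.05, adjusted p = 0.0116) and with 9cRA (-0.17 ± 0.05, adjusted p = 0.0229), and was called with neither when slide was a block (-0.17, adjusted p = 0.0728, and -0.15, adjusted p = 0.365). Both TXNRD1 calls were lost with the mean over probes as well (-0.18 in each, adjusted p = 0.0755 and 0.0805). Its 9cRA call was also lost without 9cRA array 1 or 3 or day 6 control array 1 or 3 (-0.17 to -0.15). SRXN1, sulfiredoxin, which repairs over-oxidised peroxiredoxins, was 0.57 ± 0.05 higher in culture (adjusted p = 3.0e-06) and lower with ATRA (-0.30 ± 0.05, adjusted p = 0.000544) and 9cRA (-0.23 ± 0.05, adjusted p = 0.00336). For SRXN1, slide as a block gave a 9cRA value of -0.15 (adjusted p = 0.287), and the mean over probes also gave -0.15 (adjusted p = 0.0642). TXN2, mitochondrial thioredoxin, was not called in these 3 comparisons.

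Among the superoxide dismutases, which turn superoxide into hydrogen peroxide, SOD2 of mitochondria was the one that differed most in culture. It read 3.36, 3.27 and 3.14 with ATRA, 3.26, 3.40 and 3.54 with 9cRA, 3.29, 3.06 and 3.03 in the day 6 control and 1.51, 1.61 and 1.41 at day 0. All arrays held for 6 days lie far above day 0 and overlap each other. SOD2 was 3.06-fold higher in the day 6 control than at day 0 (1.62 ± 0.10, adjusted p = 2.1e-07), and the second of its 2 probes gave 1.46. With 9cRA it was 0.27 ± 0.10 higher (adjusted p = 0.0427), a call lost without 9cRA array 2 or 3, ATRA array 2, day 6 control array 2 or 3 or day 0 array 1 (0.20 to 0.27), and with ATRA the difference was 0.13 (adjusted p = 0.305). SOD1 of the cytosol was higher with 9cRA by 0.26 ± 0.09 (adjusted p = 0.0441), a call lost without 9cRA array 2 or 3, ATRA array 2, day 6 control array 2 or 3 or any 1 of the day 0 arrays (0.20 to 0.26). Scaling to the median ended the 9cRA calls of SOD2 (0.22) and SOD1 (0.20, adjusted p = 0.151 for both), as did fitting without the filter on dim genes (adjusted p = 0.0751 and 0.0774), while slide as a block gave 0.53 and 0.50. SOD1 was lower in culture by -0.38 ± 0.09 (adjusted p = 0.00465), a difference of -0.23 with quantile normalization and one not called with slide as a block (-0.17, adjusted p = 0.138). Extracellular SOD3 was well above background on 1 ATRA array, 2 9cRA arrays, no day 6 control array and all 3 day 0 arrays, and was not called by its brightest probe. With the mean over its probes SOD3 was called lower in culture and higher with 9cRA.

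Catalase, which breaks down hydrogen peroxide in peroxisomes, read 1.98, 1.81 and 1.85 with ATRA, 1.99, 1.99 and 2.05 with 9cRA, 2.24, 2.21 and 2.20 in the day 6 control and 2.17, 2.21 and 2.17 at day 0. The retinoid arrays are lower than all others. CAT fell by 0.34 ± 0.05 with ATRA (adjusted p = 0.000324) and by 0.21 ± 0.05 with 9cRA (adjusted p = 0.00692). With slide as a block the 9cRA value was -0.15 (adjusted p = 0.319). The culture difference was 0.03 (95% interval -0.08 to 0.15).

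Of the genes of glutathione synthesis and recycling, GSS, which completes glutathione, changed most. GSS read -2.001, -1.95 and -1.93 with ATRA, -2.03, -1.55 and -1.99 with 9cRA, -1.51, -1.60 and -1.65 in the day 6 control and -0.51, -0.43 and -0.47 at day 0. Day 0 stands above all other arrays, and 9cRA array 2 lies among the day 6 control arrays. GSS was 2.17-fold lower in culture (-1.12 ± 0.11, adjusted p = 7.9e-06) and lower with ATRA (-0.37 ± 0.11, adjusted p = 0.0174). The ATRA call was lost without day 6 control array 1 (-0.34, adjusted p = 0.0548) and with slide as a block (-0.35, adjusted p = 0.0882). With 9cRA the difference was -0.27 (adjusted p = 0.0668).

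GCLM, the modifier subunit of the rate-limiting glutamate cysteine ligase, was lower with ATRA (-0.26 ± 0.06, adjusted p = 0.00711) and 9cRA (-0.22 ± 0.06, adjusted p = 0.0165) and higher in culture (0.19 ± 0.06, adjusted p = 0.0271). With slide as a block its retinoid values were -0.19 and -0.10 (adjusted p = 0.0663 and 0.571) and its culture value 0.29. Scaling to the median gave 0.11 in culture (adjusted p = 0.226). Without day 6 control array 1, its 9cRA value was -0.17 (adjusted p = 0.0521) and its culture value 0.14 (adjusted p = 0.0853), and the culture call was also lost without day 6 control array 3 or day 0 array 1 or 2 (0.18 in each). GSR, glutathione reductase, differed by -0.15 ± 0.05 in culture (adjusted p = 0.0173) and was called with neither retinoid. The culture call was lost without day 6 control array 2 or 3 or day 0 array 2 or 3 (-0.15 to -0.12) and with the mean over probes (-0.09, adjusted p = 0.142). With slide as a block the culture difference of GSR was -0.07. The block called GSR higher with ATRA (0.15, adjusted p = 0.0383), as did the fit without day 6 control array 1. The only GCLC probe, for the catalytic subunit, lay near background and was not tested.

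The 21 transferase genes were the largest family, and 15 were tested. With ATRA 3 were called higher and 6 lower, with 9cRA 3 higher and 5 lower, and in culture 6 higher and 7 lower, beside 46.2%, 46.5% and 62.4% of all genes called. GSTA2, an alpha class transferase abundant in liver, was not well above background on any ATRA or 9cRA array, and it read -4.69, -5.25 and -5.42 in the day 6 control and -2.93, -2.83 and -2.78 at day 0. It was 4.85-fold lower in culture (-2.28 ± 0.24, adjusted p = 1.4e-05). Against the day 6 control it was at least 1.63-fold lower with ATRA (adjusted p = 0.00125) and at least 1.46-fold lower with 9cRA (adjusted p = 0.000411, and 0.0581 with slide as a block). Against day 0 the bounds were at least 7.90-fold with ATRA and at least 7.08-fold with 9cRA. With normexp background correction neither retinoid call was made (-0.23 with ATRA, adjusted p = 0.0816, and -0.26 with 9cRA, adjusted p = 0.0516), and the culture difference was -1.32. The bounds hold for the processed signal and set the mean of the brighter group against the lowest signal that counts as well above background on each array of the dim group, or the probe's own signal where that is higher.

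GSTP1 and GSTO1, the pi class enzyme and an omega class thiol transferase, were lower in culture by -0.91 ± 0.08 (adjusted p = 4.0e-06) and -0.62 ± 0.11 (adjusted p = 0.000476). GSTP1 read 4.39, 4.31 and 4.38 with ATRA, 4.27, 4.30 and 4.33 with 9cRA, 4.71, 4.76 and 4.41 in the day 6 control and 5.56, 5.57 and 5.48 at day 0. Day 6 control array 3 lies close to the ATRA arrays without overlapping them. Their retinoid differences were -0.27 and -0.33 for GSTP1 and -0.34 and -0.31 for GSTO1 (ATRA and 9cRA in turn, adjusted p between 0.00811 and 0.0359). None of these 4 calls was kept with slide as a block (adjusted p between 0.111 and 0.513). The culture difference of GSTO1 was -0.39 with the block, and its 9cRA call was also lost without the filter on dim genes (adjusted p = 0.0641). The GSTO1 call with ATRA was lost when any 1 ATRA array or day 6 control array 1 or 2 was left out (-0.35 to -0.22), and that with 9cRA without 9cRA array 1 or 2, day 6 control array 1 or 2 or day 0 array 1 (-0.32 to -0.19). The GSTP1 call with ATRA was lost without ATRA array 2 or day 6 control array 1 or 2 (-0.24 to -0.20). GSTA4, which conjugates the lipid aldehyde 4-hydroxynonenal, was lower with ATRA (-0.25 ± 0.06, adjusted p = 0.00447), with 9cRA (-0.22 ± 0.06, adjusted p = 0.00893, and 0.495 with slide as a block) and in culture (-0.39 ± 0.06, adjusted p = 0.000138, and -0.25 with quantile normalization).

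GSTT1, a theta class enzyme, was higher in each comparison by its brightest probe. Of its 4 probes, all were called higher with either retinoid and 3 in culture, where they ranged over -0.12 to 0.39. The brightest probe read 0.90, 0.92 and 0.93 with ATRA, 0.67, 0.73 and 0.78 with 9cRA, 0.34, 0.31 and 0.08 in the day 6 control and -0.16, -0.09 and -0.19 at day 0. The 4 groups do not overlap. Its differences were 0.68 ± 0.07 with ATRA (adjusted p = 1.7e-05), 0.49 ± 0.07 with 9cRA (adjusted p = 0.000202) and 0.39 ± 0.07 in culture (adjusted p = 0.000537, and 0.19 with the mean over probes). GSTZ1, an enzyme of tyrosine breakdown, was higher with ATRA (0.43 ± 0.09, adjusted p = 0.00363) and 9cRA (0.47 ± 0.09, adjusted p = 0.00226, and 0.131 with slide as a block) and lower in culture (-0.92 ± 0.09, adjusted p = 1.0e-05). Its ATRA call was lost with the mean over probes (0.29, adjusted p = 0.0843). GSTT4 was lower in culture (-1.07 ± 0.23, adjusted p = 0.00207) and was not called with either retinoid. GSTK1 was called in none of these 3 comparisons by its brightest probe. Of its 3 probes, 1 was called lower in culture (range over all 3: -0.46 to -0.26), and scaling to the median called the gene there.

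The microsomal members MGST1, MGST2 and MGST3, membrane proteins that act on lipid substrates, were all higher in the day 6 control than at day 0. MGST2 read 1.73, 1.72 and 1.71 with ATRA, 1.70, 1.77 and 1.90 with 9cRA, 1.81, 1.67 and 1.62 in the day 6 control and 0.91, 0.95 and 0.95 at day 0. The groups held for 6 days overlap and lie above day 0. The culture differences were 0.73 ± 0.11 for MGST1 (adjusted p = 0.000153), 0.76 ± 0.06 for MGST2 (adjusted p = 2.4e-06) and 0.33 ± 0.13 for MGST3 (adjusted p = 0.0427). For MGST3 the call was lost when 9cRA array 2, any 1 ATRA array, day 6 control array 1 or 2 or any 1 day 0 array was left out (0.18 to 0.36), and was lowest without day 6 control array 1. The MGST3 call was also lost with scaling to the median (0.26, adjusted p = 0.115) and without the filter on dim genes (adjusted p = 0.0718), while quantile normalization gave 0.51 and slide as a block 0.62. None was called with a retinoid. The 95% intervals were -0.26 to 0.21 and -0.12 to 0.36 for MGST1, and -0.12 to 0.16 and -0.05 to 0.23 for MGST2, with ATRA and 9cRA in turn. MGST3 was called with both without day 6 control array 1 (0.45 and 0.44). With ATRA it was also called with slide as a block and within slide 2, fits that give the same difference.

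The mu class genes lie in a cluster on chromosome 3, and the array name GSTM1 covered 3 RefSeq loci (LOC327709, LOC615514 and LOC783879) and a transcript with no locus, which was not well above background. Matches of the probes to the other copies were not examined in full, so signal between them cannot be separated with certainty. As 1 example, a probe for LOC327709 (chr3:33813870-33813929, minus strand) and the only probe for LOC615514 (chr3:33797773-33797832, minus strand) are printed. They overlap over 37 bases, where the 9 mismatches are in capitals.
GSTM1-LOC327709: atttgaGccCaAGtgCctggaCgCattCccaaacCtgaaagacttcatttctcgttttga
GSTM1-LOC615514: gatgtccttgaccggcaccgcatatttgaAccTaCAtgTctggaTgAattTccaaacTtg
Over culture the LOC615514 probe differed by -1.70 ± 0.11 (3.24-fold lower, adjusted p = 4.1e-07) and the LOC327709 probe shown by -0.07 (adjusted p = 0.357). GSTM1-LOC615514 read -4.75, -4.41 and -4.44 with ATRA, -4.64, -4.30 and -4.46 with 9cRA, -3.91, -4.06 and -3.95 in the day 6 control and -2.29, -2.15 and -2.38 at day 0. Day 0 is the highest, the day 6 control lies below it and the retinoid arrays lie lower still, without overlap. It was lower with ATRA by -0.56 ± 0.11 (adjusted p = 0.00209) and with 9cRA by -0.49 ± 0.11 (adjusted p = 0.00499, and 0.0866 with slide as a block). With normexp background correction the ATRA call was lost (-0.19, adjusted p = 0.063) and the 9cRA difference was -0.20.

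For GSTM1-LOC327709 the probes went opposite ways. The brightest of its 5 probes, which stands for the gene, was higher with ATRA (0.41 ± 0.12, adjusted p = 0.0182) and 9cRA (0.44 ± 0.12, adjusted p = 0.0124), and the other 4 lay between -0.42 and -0.25 with ATRA and between -0.42 and -0.17 with 9cRA. Of those 4, all were called lower with ATRA and 3 with 9cRA. The mean over its probes was -0.21 with ATRA and -0.17 with 9cRA. The calls of the brightest probe were also lost with slide as a block (0.21 and 0.02), without ATRA array 3 (0.29) or day 6 control array 1 (0.33) for ATRA, and without 9cRA array 2 (0.35) for 9cRA. No direction is therefore given for this gene.

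GSTM1-LOC783879 rests on arrays of the day 6 control that disagree. Its brightest probe read -4.32, -4.93 and -4.55 with ATRA, -4.58, -4.28 and -4.68 with 9cRA, -4.60, -3.26 and -2.24 in the day 6 control and -4.79, -4.83 and -5.04 at day 0. Day 6 control array 1 lies within the range of the retinoid arrays, and arrays 2 and 3 lie above every other array. The culture difference was 1.52 ± 0.46 (adjusted p = 0.0146) and 0.96 without day 6 control array 3 (adjusted p = 0.0371). It was 0.28 with slide as a block, where it rests on day 6 control array 1 alone. The ATRA difference was -1.23 ± 0.46 (adjusted p = 0.0494), a call lost when any array but day 6 control array 1 was left out (-1.37 to -0.67). Without day 6 control array 1 it was -1.85 (adjusted p = 0.000601). The mean over probes gave 0.61 in culture and -0.64 with ATRA (adjusted p = 0.092 and 0.102), normexp gave 0.83 and -0.67, the block gave -1.88 with ATRA, and the ATRA call was lost without the filter on dim genes (adjusted p = 0.0848). Its second probe differed by -0.29 in culture and -0.04 with ATRA. GSTM3 was higher in culture (0.69 ± 0.11, adjusted p = 0.000358), its 2 probes giving 0.69 and 0.59. With ATRA they gave -0.29 (adjusted p = 0.0616) and -0.92 (adjusted p = 0.000211). With 9cRA they gave -0.19 and -0.83, of which the latter was called lower. The mean over probes called GSTM3 lower with either retinoid.

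**Figure D3:**
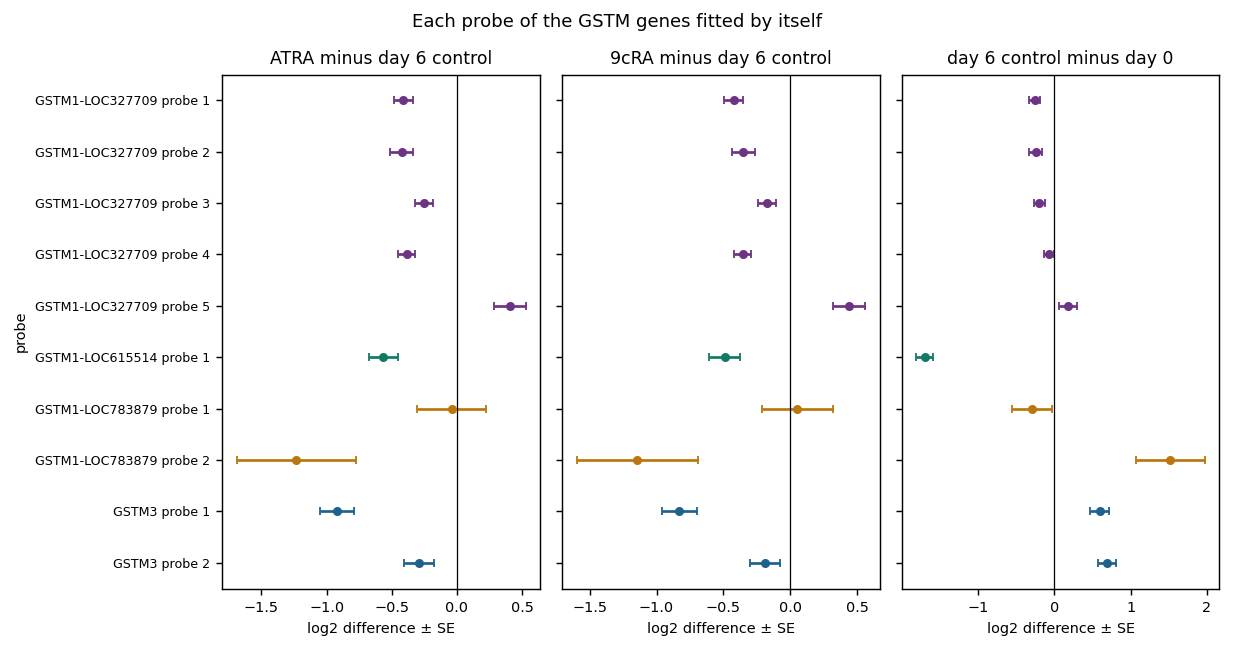
Each row is 1 probe of a GSTM gene and each point its log2 difference ± SE, fitted probe by probe, in 3 comparisons. The fifth probe of GSTM1-LOC327709 lies right of 0 with both retinoids, where its other 4 probes lie left of 0, and the GSTM1-LOC615514 probe is the lowest in culture.

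Of the other transferases, GSTA1, GSTA3, GSTA5, GSTO2 and GSTT2 had representative probes that lay at or near background and were not tested. The second GSTA1 probe was well above background on the 3 day 0 arrays (-5.16, -4.99 and -4.88) and on none of the 9 others.

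ATRA and 9cRA are stereoisomers that differ in the geometry of a double bond, given here at the same dose and time. In this 1 pair of compounds 0 of 42 genes were called by limma, beside 0.118% of all genes (21 of 17736, with 0.0620% higher and 0.0564% lower), and differences ranged over -0.46 to 0.25. An unadjusted p under 0.05 was found for CAT, GSTT1 and TXNRD2, but the share of all genes at that threshold was not counted. For TXN the difference was -0.02, with a 95% interval of -0.24 to 0.20, and for GPX3 it was 0.12 (-0.06 to 0.30). NFE2L2 differed by 0.23 (-0.02 to 0.48), TXNRD2 by 0.19 (0.05 to 0.33) and GSTT1 by 0.19 (0.04 to 0.34), with adjusted p of 0.51, 0.311 and 0.356, and in these genes the ATRA arrays lie above the 9cRA arrays without overlap. How many of all genes are separated in this way was not counted. CAT differed by -0.13 (-0.24 to -0.02, adjusted p = 0.406), with the ATRA arrays the lower. The widest intervals were those of GSTM1-LOC783879 (-1.11 to 0.93) and SOD3 (-1.15 to 0.23). A difference that was not called does not show that the compounds act alike.

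**Figure D4:**
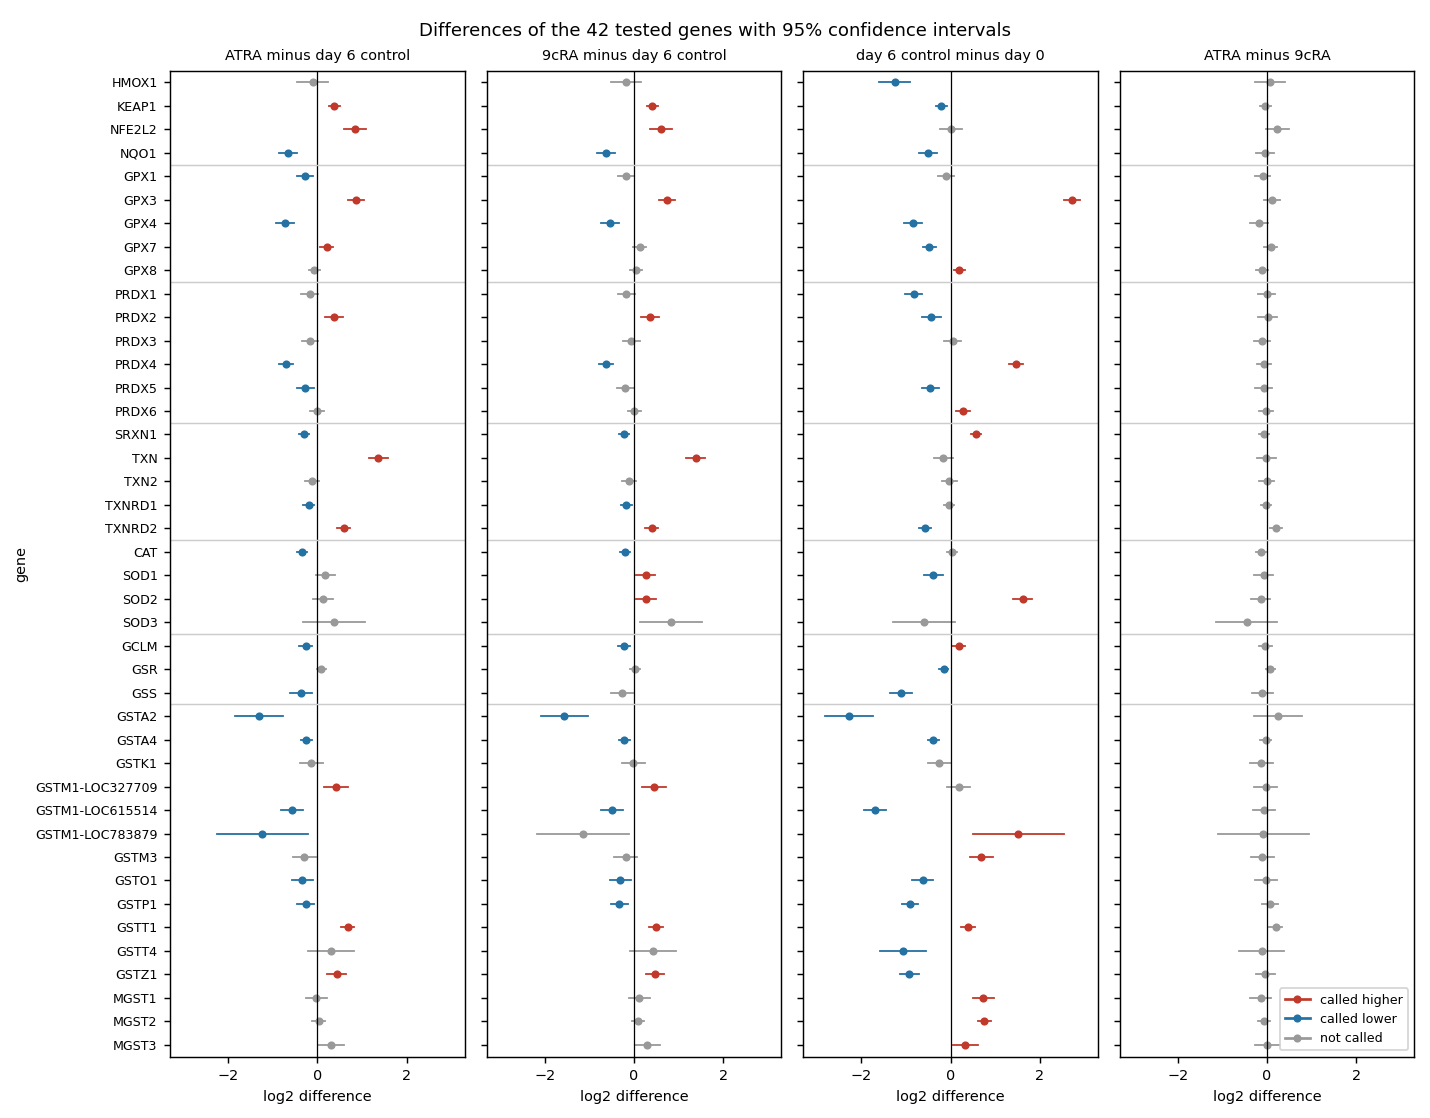
Points are log2 differences of the 42 tested genes in 4 comparisons and lines their 95% confidence intervals, with genes called higher in red, called lower in blue and not called in grey. TXN, GPX3 and NFE2L2 lie right of 0 against the day 6 control with either retinoid, and in the panel of ATRA minus 9cRA no gene is coloured.

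Set against day 0, ATRA cells had 14 genes called higher and 18 lower, and 9cRA cells 15 higher and 19 lower, beside 71.5% of all genes called with ATRA (38.7% higher and 32.8% lower) and 71.3% with 9cRA (39.0% higher and 32.3% lower). With each array scaled to its median, 10 of 33 and 12 of 33 calls were higher, beside 44.3% and 44.7% of the calls over all genes. GPX3 was higher than at day 0 by 3.58 ± 0.08 with ATRA and 3.47 ± 0.08 with 9cRA (adjusted p = 1.1e-10 and 1.4e-10). SOD2 was 3.35-fold and 3.71-fold higher (1.75 ± 0.10 and 1.89 ± 0.10). GPX4 was 2.98-fold lower with ATRA and 2.62-fold lower with 9cRA (-1.58 ± 0.09 and -1.39 ± 0.09), and NQO1 was 2.24-fold and 2.18-fold lower (-1.17 ± 0.09 and -1.12 ± 0.09). With slide as a block both comparisons with day 0 rest on day 6 control array 1, so no count is given for them.

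Other genes of the pathway were taken from lists of related function. Of 23 tested genes of glutathione turnover and cysteine supply, 5 were called higher and 13 lower with ATRA, and 4 higher and 13 lower with 9cRA. Those called make up 78.3% and 73.9% of the list, beside 46.2% and 46.5% of all genes. Their median differences were -0.31 and -0.29, beside 0.05 and 0.06 over all genes. GGT1, which cleaves glutathione outside the cell, read -1.48 ± 0.05 with ATRA, -1.41 ± 0.03 with 9cRA and -5.02 ± 0.21 in the day 6 control (SD, n = 3), and was 11.6-fold and 12.3-fold higher (adjusted p = 5.1e-09 and 5.0e-09). LAP3, a peptidase that can split the resulting dipeptide, was 2.39-fold and 2.51-fold higher. GGCT, which breaks down gamma-glutamyl amino acids, was 4.92-fold lower with ATRA and 4.52-fold lower with 9cRA, and ANPEP, a surface aminopeptidase, was 3.79-fold and 3.84-fold lower. In culture 8 of the 23 were higher and 11 lower (82.6%, beside 62.4% of all genes), with a median of -0.14. GGCT was 4.61-fold higher in the day 6 control than at day 0, GGT5 7.60-fold and GGT7 4.16-fold, and SLC1A1, a transporter of glutamate and cysteine, was at least 17.8-fold higher, since it was not well above background at day 0.

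Of 18 tested enzymes that produce oxidants, 11 were called higher with ATRA and 8 with 9cRA, and the others were not called (median differences 0.32 and 0.22). That is 61.1% and 44.4% called higher, beside 23.8% and 24.8% of all genes. NCF4 and NCF1, cytosolic subunits of the phagocyte NADPH oxidase, were 3.94-fold and 3.20-fold higher with ATRA and 3.74-fold and 3.13-fold higher with 9cRA. NOXA1, the activator of a related oxidase, was 2.45-fold and 1.87-fold higher. The summed linear signal of the 7 macrophage or leukocyte markers on the array (4 tested), in units of the array's 75th percentile, was 4.08 to 4.28 with ATRA, 3.82 to 4.22 with 9cRA, 1.40 to 2.13 in the day 6 control and 1.92 to 2.23 at day 0. The part of such cells in the NCF1 and NCF4 values was not tested. In culture 7 of the 18 were higher and 5 lower (median 0.46), a called share of 66.7% that is near the 62.4% of all genes, led by MAOA, a mitochondrial amine oxidase (32.7-fold higher), AOC3, a surface amine oxidase (4.15-fold lower), and XDH, xanthine oxidoreductase (3.17-fold higher).

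Of 21 tested genes that supply NADPH, 4 were higher and 8 lower with ATRA, 5 higher and 7 lower with 9cRA, and 6 higher and 12 lower in culture (medians -0.10, -0.12 and -0.40). The called shares were 57.1%, 57.1% and 85.7%, beside 46.2%, 46.5% and 62.4% of all genes. ME2, a mitochondrial malic enzyme, was 1.90-fold lower with ATRA, 1.84-fold lower with 9cRA and 2.03-fold higher in culture. TKT, transketolase of the pentose phosphate path, was 1.31-fold and 1.35-fold higher with the retinoids and 2.25-fold lower in culture. IDH1, cytosolic isocitrate dehydrogenase, was 2.72-fold lower in culture.

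Of 33 tested thiol oxidoreductases and their inhibitors outside the set, 3 were called higher and 11 lower with ATRA, 5 and 8 with 9cRA, and 10 and 13 in culture (medians -0.07, -0.04 and -0.0068). These shares of 42.4%, 39.4% and 69.7% lie near or below those of all genes with the retinoids (46.2% and 46.5%) and near that in culture (62.4%). SESN1, a stress protein, read 0.35 ± 0.05 with ATRA, 0.46 ± 0.04 with 9cRA and 1.30 ± 0.05 in the day 6 control (SD, n = 3), and was 1.94-fold and 1.79-fold lower. In culture SESN1 was 2.93-fold higher and TXNIP, the inhibitor of thioredoxin, was 5.36-fold higher (2.42 ± 0.10, adjusted p = 1.2e-08).

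Of 13 tested partners and regulators of NRF2, 4 were higher and 2 lower with ATRA, 5 and 2 with 9cRA, and 4 and 6 in culture (medians 0.13, 0.14 and -0.26). With ATRA the called share was 46.2%, the same as over all genes, with 9cRA it was 53.8%, beside 46.5%, and in culture 76.9%, beside 62.4%. NFE2L1, a relative of NRF2, was 1.31-fold and 1.30-fold higher with the retinoids. SQSTM1, an autophagy receptor that binds KEAP1, was 3.39-fold lower in culture (-1.76 ± 0.05, adjusted p = 1.3e-09). Of 28 tested genes otherwise known as NRF2 targets, 12 were higher and 7 lower with ATRA, 11 and 8 with 9cRA, and 7 and 14 in culture (medians -0.03, 0.04 and -0.19). The called share was 67.9% with either retinoid, beside 46.2% and 46.5% of all genes, and in culture 21 of the 28 were called, beside 62.4%. OSGIN1 was 1.62-fold and 1.56-fold higher with ATRA and 9cRA, whereas HTATIP2 was 1.85-fold and 1.78-fold lower and the glutathione conjugate pump ABCC1 was 1.59-fold and 1.81-fold lower. EPHX1, microsomal epoxide hydrolase, was 3.57-fold lower in culture. Some genes stand in more than 1 of these lists.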

How the data were processed

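Intensities of 45220 spots per array, 1417 of them controls, were deposited as scanner output. Per the file headers, Feature Extraction 10.7.3.1 had subtracted background and corrected spatial and multiplicative trends, with no scaling between arrays. Here the processed signal was taken as log2 minus the array's 75th percentile, control spots and outlier flags were left out, and spots of a probe were averaged. Probes were named through RefSeq, 26743 by accession, 5971 by current and 141 by older symbol, and 10798 kept the file's name. A gene was represented by its brightest probe and tested if well above background on all 3 arrays of a group, with limma 3.58.1 in R 4.3.3 over 12 arrays and 4 groups (two-sided), checked on simulated data. The authors' deposited log2 table (1 column per group, medians 0.01 for ATRA, 0.02 for 9cRA, -0.01 for the day 6 control and 0.01 at day 0) matched these group values after centring (r between 0.935 and 0.992), so its scale and direction are known.

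Named genes are all members and, from each other list, up to 4 called genes with the smallest adjusted p per comparison. Members, lists and tests were chosen with earlier results of these data known. Alternatives were quantile and median scaling, normexp with offset 50, no filter and a filter over all 12 arrays, slide as a block or held fixed, the mean over probes, each probe by itself, only 2 groups, and leaving out each array. Promoter and protein sequences were not used here, and no annotation of UMD3.1 was used, so exons are not named.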

Additional observations from a re-analysis of the deposited data

How the results depend on the processing

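For 9cRA, slide as a block gave 9 calls against the day 6 control (21.4%, beside 23.1% of all genes) and 19 against day 0 (45.2%, beside 40.0%). With only the 2 groups fitted, 9cRA gave 17 calls against the day 6 control (40.5%, beside 37.6% of all genes). For ATRA against the day 6 control, there were 15 calls within the shared slide (35.7%, beside 30.0% of all genes) and 17 with only the 2 groups fitted (40.5%, beside 37.0%). The counts without 1 array lay between 22 and 26 (ATRA against day 6 control), 20 and 24 (9cRA against day 6 control), 29 and 32 (day 6 control against day 0), 31 and 33 (ATRA against day 0) and 31 and 34 (9cRA against day 0), and ATRA against 9cRA stayed at 0. Over all 17736 genes the first 3 ranges were 6965 to 8248, 6715 to 8404 and 10089 to 11667 calls. Against day 0 the ranges over all genes were 11847 to 13101 with ATRA and 11770 to 13068 with 9cRA. Calls kept in all 12 such fits numbered 18 of 26, 17 of 23, 29 of 32, 31 of 32 and 31 of 34, in that order. With the mean over probes GSTM1-LOC327709 turned to -0.21 (ATRA) and -0.17 (9cRA) against the day 6 control and to -0.33 and -0.29 against day 0, and KEAP1 with ATRA against day 0 came to -4.589e-05. With slide as a block, against day 0, GSTM1-LOC783879 turned to -1.59 (ATRA), and GSR to 0.044 and PRDX3 to 0.40 (9cRA). With each array scaled to its median, 9 of 29 calls of the day 6 control against day 0 and 9 of 26 of ATRA against the day 6 control were higher. Of the calls over all genes in these fits, 42.9% and 43.1% were higher. With slide as a block, calls of the related lists with 9cRA against the day 6 control numbered 3 higher and 1 lower (NRF2 partners), 2 and 5 (other NRF2 targets), 4 and 8 (glutathione turnover), 2 and 4 (NADPH supply), 3 and 2 (thiol oxidoreductases) and 6 and 0 (oxidant producing enzymes). These lists hold 13, 28, 23, 21, 33 and 18 tested genes in that order. Of all genes, 23.1% were called in this fit, and 44.7% of those calls were higher. No paired analysis was possible because the labels give no replicate numbers. Arrays numbered 3 a group, which limits the precision, and GSTA2 and SOD3 lay at the edge of background. Where a value changed, the cause was not tested.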
